A study of Mus musculus with 15 samples.

Results

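The 10 genes described here mark T cells and the lymphocytes that sit within the gut epithelium: the CD3 chain genes Cd3d, Cd3e and Cd3g, the co-receptor genes Cd4, Cd8a and Cd8b1, the integrin gene Itgae, and the cytotoxic granule genes Gzma, Gzmb and Nkg7. They were chosen by name, and all 10 were found by symbol among the 45808 rows of the cecal expression table. The table holds the ceca of 15 wild-type C57BL/6 mice, whose age the labels give as 20 weeks. For 30 days, all mice were gavaged 2 times a day. The 7 AIMD mice were given ampicillin, vancomycin, neomycin, metronidazole and amphotericin B, and the 8 vehicle-treated mice water. AIMD stands for antibiotic-induced microbiome depletion. The tissue was the emptied cecum, so that each value averages epithelium, muscle, lymphoid tissue and vessels.

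T cells recognize antigen with a receptor that signals through the CD3 chains, and the CD4 or CD8 co-receptor binds the presenting MHC molecule. In the gut, many T cells are intraepithelial lymphocytes, which lie between epithelial cells and are held there by the integrin CD103, the product of Itgae, which binds E-cadherin. A large share of them carry CD8, made of 2 alpha chains or of an alpha and a beta chain, and many hold granules with granzymes.

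AIMD and vehicle-treated mice were compared to see how the expression of these lymphocyte genes stood after microbiome depletion. Of the members, Nkg7, whose product is a granule membrane protein of killer cells, rose in AIMD mice, and no member fell. The means of Gzma, Gzmb, Itgae and Cd8b1 in AIMD mice were 1.95, 1.95, 1.71 and 2.06 times those in vehicle-treated mice, but the groups overlapped for each of them, and none of the 4 passed its test. Cd3d, Cd3e and Cd4 had mean values close to each other in the 2 groups. In bulk tissue, fewer cells of a type and less RNA per cell cannot be told apart.

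Values are FPKM, in which the read count of a gene is divided by gene length and a scaling factor of its library. The fold changes are differences of mean log2(FPKM + 0.5) after scaling. This scale understates the change of low genes. Genes were tested with limma if 7 or more mice had an FPKM of 0.5 or more, and a gene was called at an adjusted p under 0.05 over all 11983 genes tested. Of these, 36.1% were called, 19.4% higher and 16.7% lower in AIMD mice. Among the 10 members, 9 were tested, 1 was called higher and 0 were called lower. Of these 9, 4 passed the minimum mainly through the AIMD mice, in which they were higher. Cd8a and Itgae reached it in 5 AIMD and 2 vehicle-treated mice, Gzmb in 5 and 3, and Nkg7 in 7 and 3. The direction of their differences is therefore in part set by the filter, and no count of directions over the members is given. With no filter, the limma adjusted p of Nkg7 was 0.029.

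Since each deposited value is a whole number of reads in units of FPKM, the reads behind it could be recovered. Reads on genes ran from 8679685 to 18108594 with AIMD and from 4372429 to 14405960 with vehicle, so that the vehicle-treated libraries were on the whole shallower. The members rested on few reads. Over all mice of a group, Nkg7 had 100 reads in AIMD and 33 in vehicle-treated mice, and Cd8b1 had 38 and 14. The expression of 12 circadian clock genes split the mice into 2 clusters, with AIMD replicates 1 to 3 and vehicle replicates 1 to 4 in cluster 1 and AIMD replicates 4 to 7 and vehicle replicates 5 to 8 in cluster 2. The study's own model used the time of sacrifice, which the labels do not give, so results are also given within these clusters. Vehicle replicate 8 had the fewest reads and the highest summed FPKM of smooth muscle markers.

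**Figure D1:**
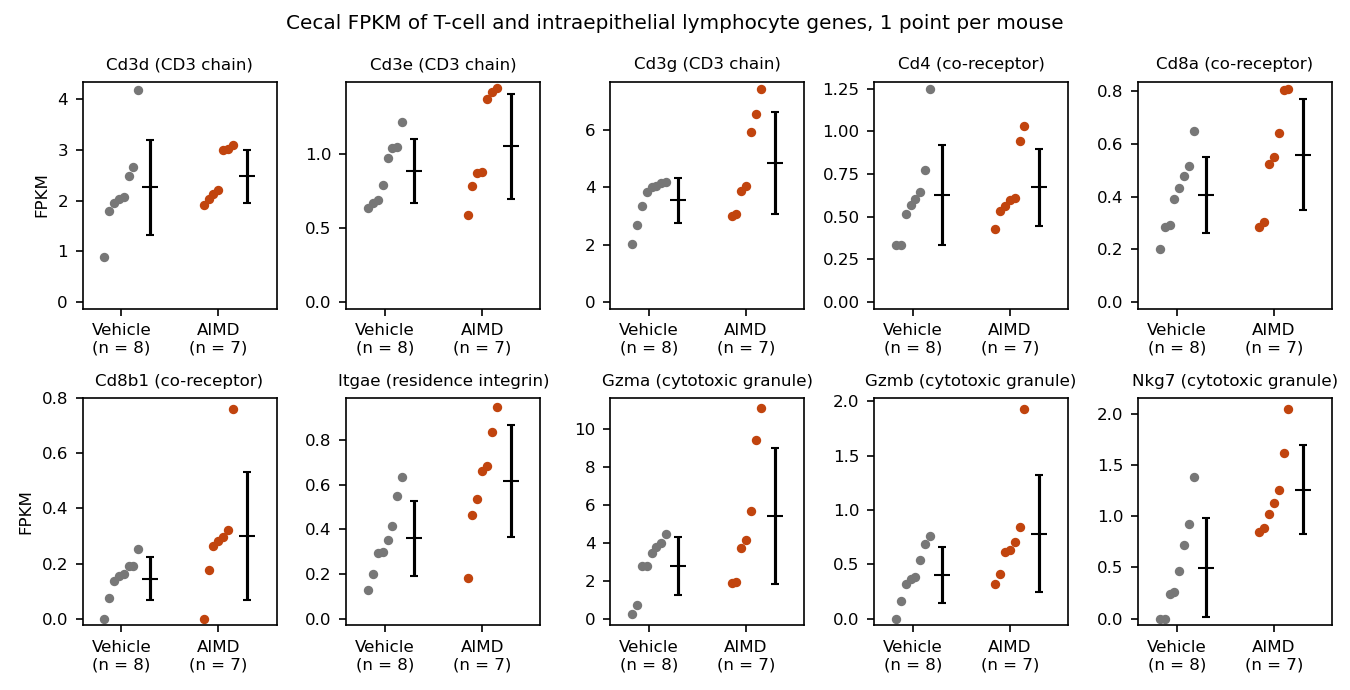
FPKM of each of the 10 members (vertical axis) in the vehicle-treated (grey, n = 8) and AIMD mice (red, n = 7), with 1 point per mouse and the mean and SD as a black bar. The groups overlapped for every member, and Nkg7 had the lowest AIMD mouse, at 0.847, above 6 of the 8 vehicle-treated mice.

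The sequences upstream of the granule genes are shown because the 3 granule genes have the largest log2 fold changes of the tested members. RUNX proteins, transcription factors of CD8 T cells, bind a core with the letters TGTGGT, which reads ACCACA on the other strand. RefSeq promoter windows on GRCm38.p6 run from 250 bases before to 50 bases after the start of a gene, and 7 of the 10 members have one. This motif, the single one searched, was chosen after the values and the windows had been seen. It was searched on both strands, and 3 of the 7 windows held it, those of Gzma, Gzmb and Nkg7. Of the windows of all 27025 genes, 16.9% held these letters. A match describes the letters and is not a binding site. Each window is printed in the direction of the gene, with the match in capitals.
Nkg7, chr7:43436888-43437187, plus strand: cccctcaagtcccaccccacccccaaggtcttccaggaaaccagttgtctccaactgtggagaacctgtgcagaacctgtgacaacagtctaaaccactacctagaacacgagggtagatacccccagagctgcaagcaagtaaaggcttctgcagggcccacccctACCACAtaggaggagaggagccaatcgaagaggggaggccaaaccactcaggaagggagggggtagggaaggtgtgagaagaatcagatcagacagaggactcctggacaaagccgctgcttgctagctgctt
Gzma, chr13:113100932-113101231, minus strand: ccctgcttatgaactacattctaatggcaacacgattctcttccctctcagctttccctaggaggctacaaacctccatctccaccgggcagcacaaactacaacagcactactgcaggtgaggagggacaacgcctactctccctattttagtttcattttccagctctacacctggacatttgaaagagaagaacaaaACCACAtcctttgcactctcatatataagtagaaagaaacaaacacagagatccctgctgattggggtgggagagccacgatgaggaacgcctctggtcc
Gzmb, chr14:56262285-56262584, minus strand: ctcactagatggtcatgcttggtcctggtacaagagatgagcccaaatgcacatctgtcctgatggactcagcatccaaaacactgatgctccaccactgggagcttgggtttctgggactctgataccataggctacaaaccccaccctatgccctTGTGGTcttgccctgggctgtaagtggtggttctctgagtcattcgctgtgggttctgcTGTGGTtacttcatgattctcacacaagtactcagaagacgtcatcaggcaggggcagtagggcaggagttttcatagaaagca
Counted from the RefSeq start, the match begins 83 bases upstream in Nkg7, 50 bases upstream in Gzma, and 93 and 34 bases upstream in Gzmb, where both lie on the forward strand. The RefSeq and GENCODE M21 starts coincide for Gzma. The RefSeq start of Nkg7 lies 65 bases downstream of the GENCODE one, and that of Gzmb lies 74 bases upstream, so that the window printed for Gzmb lies outside the gene span given for it from GENCODE. The windows of Cd3d, Cd3e, Cd3g and Cd8a held no match in these 300 bases.

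The CD3 chain genes lie together on chromosome 9 of GRCm38, in GENCODE M21 with Cd3g at chr9:44969572-44980431 on the minus strand, Cd3d at chr9:44981786-44987339 on the plus strand, and Cd3e at chr9:44998740-45009627 on the minus strand. Between them lie 1354 bases (Cd3g to Cd3d) and 11400 bases (Cd3d to Cd3e). All 3 encode parts of the complex that carries the signal of the T cell receptor. The FPKM of Cd3d had a lowest, median and highest value of 1.91, 2.21 and 3.09 with AIMD and of 0.895, 2.06 and 4.18 with vehicle. The AIMD range lay within the vehicle range. For Cd3d, the log2 fold change was 0.16 (standard error, SE, 0.19, and adjusted p = 0.536 by limma).

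Cd3e had FPKM of 0.587, 0.882 and 1.45 (lowest, median, highest) with AIMD and 0.638, 0.887 and 1.22 with vehicle. The medians were nearly equal, and 3 AIMD mice lay above and 1 lay below the whole vehicle range. Its log2 fold change was 0.15 (SE 0.15, adjusted p = 0.465 by limma). The FPKM of Cd3g was 3.00, 4.05 and 7.41 with AIMD and 2.03, 3.93 and 4.16 with vehicle. AIMD replicates 4, 6 and 7 stood above all vehicle-treated mice, and the other 4 AIMD mice fell within their range. Its log2 fold change stood at 0.36 (SE 0.19, adjusted p = 0.154 by limma). Whether Cd3g was called depended on what else the model held, and the limma adjusted p of Cd3g was 0.020 with B cell markers, 0.009 with epithelial markers and 0.037 with read depth as a covariate.

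Cd4 encodes the co-receptor of helper and regulatory T cells and lies at chr6:124864692-124888221 on the minus strand. Its FPKM was 0.426, 0.599 and 1.03 in AIMD mice (lowest, median, highest) and 0.336, 0.585 and 1.25 in vehicle-treated mice, so that the AIMD range again lay within the vehicle range. Cd4 had a log2 fold change of 0.07 (SE 0.16, adjusted p = 0.753 by limma).

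The CD8 genes neighbor each other, with Cd8b1 at chr6:71322788-71337494 and Cd8a at chr6:71373427-71379173, both on the plus strand and 35932 bases apart. Cd8a encodes the alpha chain, which intraepithelial lymphocytes can carry without the beta chain. Its FPKM was 0.286, 0.548 and 0.806 with AIMD and 0.201, 0.412 and 0.647 with vehicle, and 2 AIMD mice lay above all vehicle-treated mice. Cd8a had a log2 fold change of 0.22 (SE 0.15, adjusted p = 0.260 by limma). Cd8b1 encodes the beta chain, and it was the member with too few reads to be tested. Its FPKM was 0, 0.282 and 0.762 with AIMD and 0, 0.159 and 0.253 with vehicle, which were 0 to 9 and 0 to 4 reads. AIMD replicate 7 and vehicle replicate 7 had no read, where 3 reads would have been an FPKM of 0.184 and 0.323. In 5 AIMD mice Cd8b1 was above every vehicle-treated mouse, but the difference of the means on the log2 scale, 0.27, did not pass a two-sided exact permutation test over the 15 mice (p = 0.0999, unadjusted).

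The ratio of Cd8b1 to Cd8a, on the FPKM scale, had a median of 0.502 in AIMD mice (0 to 1.04) and of 0.358 in vehicle-treated mice (0 to 1.26). The ratio of Cd4 to Cd8a had a median of 1.16 in AIMD mice (0.702 to 3.39) and of 1.48 in vehicle-treated mice (0.706 to 4.27). For both ratios the groups overlapped, and no test was made of them.

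Itgae, at chr11:73090583-73147446 on the plus strand, encodes the alpha E integrin chain that anchors T cells to E-cadherin. It overlaps Haspin on the opposite strand, and whether the counting used strand is not given in the sources used here. The FPKM of Itgae was 0.184, 0.663 and 0.947 with AIMD and 0.129, 0.326 and 0.634 with vehicle. In 4 AIMD mice it was above every vehicle-treated mouse, while AIMD replicate 3 was lower than 7 of them. Itgae had a log2 fold change of 0.36 (SE 0.17, adjusted p = 0.0959 by limma). Without AIMD replicate 3 the limma adjusted p of Itgae was 0.023, and with read depth as a covariate it was 0.034. Itgae reached the filter in just enough mice, so it was tested in 8 of the 15 fits with 1 mouse left out. In these its adjusted p ran from 0.0232 to 0.161 by limma. The partners of Itgae did not pass the test. Itgb7, the beta chain that pairs with it, had a log2 fold change of 0.08 (SE 0.16, adjusted p = 0.714 by limma), and Cdh1, which encodes E-cadherin, had one of -0.34 (SE 0.16, adjusted p = 0.0998 by limma).

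Nkg7 lies at chr7:43437073-43438249 on the plus strand. Its FPKM in AIMD mice was 0.847, 1.13 and 2.05 (lowest, median, highest), from 9 to 21 reads, and in vehicle-treated mice it was 0, 0.363 and 1.38, from 0 to 11 reads. Vehicle replicates 5 and 7 had no Nkg7 read, where 3 reads would have been an FPKM of 0.662 and 0.522. All 7 AIMD mice lay above 6 of the vehicle-treated mice, and vehicle replicates 2 and 3 reached into the AIMD range. The mean FPKM of Nkg7 was 1.26 ± 0.435 (SD, n = 7) with AIMD and 0.50 ± 0.483 (SD, n = 8) with vehicle, a ratio of 2.52. As a log2 fold change this was 0.92 (SE 0.26, adjusted p = 0.0114 by limma). With any 1 of the mice left out, Nkg7 remained called, at adjusted p of 0.00278 to 0.0245 by limma. The call was lost with read depth (adjusted p = 0.080 by limma), epithelial markers (0.10) or smooth muscle markers (0.086) as a covariate.

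Within the clock-gene clusters the difference in Nkg7 was uneven. In cluster 2 its mean FPKM was 1.27 with AIMD (4 mice) and 0.126 with vehicle (4 mice), and in cluster 1 it was 1.24 with AIMD (3 mice) and 0.873 with vehicle (4 mice). The groups did not overlap in cluster 2, as for 14.5% of all tested genes with AIMD mice higher, and did overlap in cluster 1, where this share was 16.1%. On the log2 scale the fold change was 1.48 in cluster 2 (adjusted p = 0.00431 by limma) and 0.37 in cluster 1 (adjusted p = 0.33 by limma). The difference between the clusters, 1.12 on the log2 scale, had an unadjusted p of 0.00742 and an adjusted p of 0.953 in the limma interaction fit over all genes, so it was not called. The vehicle-treated mice of cluster 2 include the 2 without an Nkg7 read and the shallowest library, with 1 read. In these, vehicle replicates 5, 7 and 8, mitochondrial genes took 26.2%, 25.8% and 19.6% of the reads on genes. This share was 6.92% to 16.2% in the other vehicle-treated mice and 4.28% to 10.9% in AIMD mice. Its part in the Nkg7 difference was not tested.

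Gzma, at chr13:113093825-113100981 on the minus strand, encodes granzyme A, a protease of killer cell granules. Its FPKM was 1.86, 4.15 and 11.1 with AIMD and 0.260, 3.13 and 4.46 with vehicle. AIMD replicates 2, 4 and 6 stood above all vehicle-treated mice, while AIMD replicates 1 and 3 were lower than most of them, and vehicle replicate 8 had 1 read. Gzma had a log2 fold change of 0.84 (SE 0.43, adjusted p = 0.134 by limma), close in size to that of Nkg7 with a larger error. It was 0.22 within cluster 1 and 1.32 within cluster 2 of the clock genes, and passed the limma test in neither (adjusted p = 0.769 and 0.117).

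Gzmb, at chr14:56258838-56262260 on the minus strand, encodes granzyme B, the granule protease that cleaves caspases in target cells. Its FPKM was 0.323, 0.630 and 1.93 with AIMD and 0, 0.373 and 0.759 with vehicle, from 8 to 36 and from 0 to 10 reads. AIMD replicate 6 was highest for both granzymes. On the log2 scale Gzmb differed by 0.47 (SE 0.23, adjusted p = 0.110 by limma). The ratio of Gzmb to Gzma had medians of 0.165 in AIMD and 0.163 in vehicle-treated mice. Prf1, the pore-forming perforin gene of the same granules, was near 0 in both groups, at 0 to 0.111 FPKM in AIMD and 0 to 0.0437 in vehicle-treated mice.

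**Figure D2:**
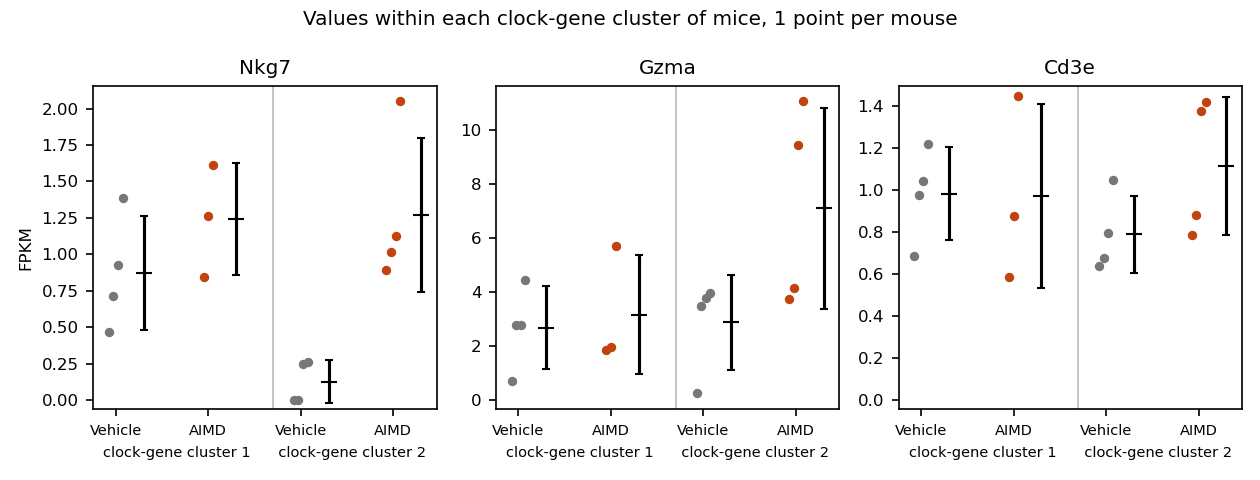
FPKM (vertical axis) of Nkg7, Gzma and Cd3e in vehicle-treated (grey) and AIMD mice (red) within the 2 clusters of mice set by the clock genes, with 1 point per mouse and the mean and SD as a black bar. In cluster 2 the vehicle-treated mice had a mean Nkg7 of 0.126 and did not overlap with the AIMD mice, as for 14.5% of all tested genes in that direction, and in cluster 1 the groups overlapped.

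Set against the CD3 genes of the same mouse, the granule genes spread over a wide range. The ratio of Gzma to the mean FPKM of Cd3d, Cd3e and Cd3g had a median of 1.88 in AIMD mice (0.846 to 3.31) and of 1.52 in vehicle-treated mice (0.116 to 1.83), and 4 AIMD mice lay above all vehicle-treated mice. That of Nkg7 had medians of 0.511 (0.274 to 0.687) and 0.197 (0 to 0.608). That of Cd4 had medians of 0.282 and 0.274. None of these ratios separated the groups.

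Genes that work with the members were counted by list, and no list was tested as a set. The shares called over all tested genes were 19.4% higher and 16.7% lower. Genes of the lists passed the same filter as the members. For those near the minimum the direction is therefore in part set by it. Of 36 further genes of the T cell receptor and its co-receptors, 18 were tested, 1 rose and 3 fell, with a median log2 fold change of -0.20. The constant region Trac of the alpha chain had a log2 fold change of 0.12 (SE 0.25, adjusted p = 0.733 by limma), and the beta constant regions Trbc1 and Trbc2, which share much of their sequence, had -0.04 and -0.35 and did not pass either. Tcrg-C2, a constant region of the gamma chain of gamma-delta T cells, rose by 0.72 on the log2 scale (SE 0.22, adjusted p = 0.0164 by limma). Its FPKM was 1.14 to 2.75 with AIMD and 0.250 to 1.41 with vehicle, and 25.4% of its 50-base windows also occur in other genes, chiefly Tcrg-C3 and Tcrg-C1. Trdc, the delta constant region, was too low to be tested, at 0.225 to 0.466 and 0.0349 to 0.458 FPKM.

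Lck and Ptprcap were among the genes of this list that fell. Lck, the kinase that acts first in receptor signaling, had an FPKM of 1.17 to 2.07 in AIMD and 1.92 to 2.86 in vehicle-treated mice, and its log2 value fell by 0.51 (SE 0.12, adjusted p = 0.00488 by limma). Ptprcap, a partner of the leukocyte phosphatase CD45, had a log2 fold change of -0.75 (adjusted p = 0.0172 by limma), with 24.5% of its windows shared with other genes, chiefly Coro1b. The calls of Ptprcap and Tcrg-C2 were each lost in 7 of 34 alternatives, among them B cell markers as a covariate. That of Lck was lost in clock-gene cluster 2 (limma adjusted p = 0.190) and with B cell markers as a covariate (0.0608).

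Of 29 further genes of cytotoxic granules and killer receptors, 11 were tested, 5 rose and 0 fell, with a median log2 fold change of 0.32. For comparison, 19.4% of all tested genes were called higher and 16.7% lower. Xcl1, a chemokine of activated CD8 T cells and natural killer cells, had FPKM of 1.61 to 4.37 in AIMD and 0 to 1.75 in vehicle-treated mice and a log2 fold change of 1.58 (SE 0.28, adjusted p = 0.000411 by limma). Xcl1 rested on 128 reads over the AIMD and 22 over the vehicle-treated mice. It reached the minimum of 0.5 in 7 AIMD and 3 vehicle-treated mice, so it passed the filter mainly through the AIMD mice. Ccl5, a chemokine stored by memory CD8 T cells, had 2.62 to 5.23 and 0.468 to 2.91, a log2 fold change of 1.34 (adjusted p = 0.000735 by limma). Both exceeded all vehicle-treated mice in 6 of the 7 AIMD mice. Cst7, an inhibitor of granule proteases, had a log2 fold change of 1.23 (adjusted p = 0.00264 by limma), and Rab27a, which docks granules at the cell membrane and is also expressed in other secretory cells, had one of 0.87 (adjusted p = 0.000171 by limma). The fifth, Ctsc, which activates granzymes and was named after its value was seen, had one of 0.55 (adjusted p = 0.00845 by limma). The mean FPKM of Ctsc was 14.2 with AIMD and 9.63 with vehicle, above that of Gzma, at 5.42 and 2.78. Which cells expressed Ctsc was not tested. Within cluster 1 Cst7 and Ctsc were not called (limma adjusted p = 0.0956 and 0.215).

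Of 25 further genes of intraepithelial residence, 11 were tested, 1 rose and 1 fell, beside 19.4% and 16.7% of all tested genes. Cd7, a surface protein of T cells and natural killer cells, had FPKM of 1.21 to 3.56 in AIMD and 0.360 to 1.37 with vehicle, for a log2 fold change of 0.99 (SE 0.21, adjusted p = 0.0016 by limma). Cd69, which keeps lymphocytes in tissue and also rises on newly activated B and T cells, had 0.953 to 2.89 and 1.51 to 3.81, a log2 fold change of -0.60 (SE 0.20, adjusted p = 0.0278 by limma). Of 20 helper and regulatory T cell genes, 5 were tested and 1 fell, Ikzf2, at -0.36 (adjusted p = 0.0472 by limma). The FPKM of Ikzf2, 1.90 to 3.87 with AIMD and 2.93 to 4.63 with vehicle, was above that of Cd4 in every mouse. Which cells expressed Ikzf2 was not tested. Foxp3, which defines regulatory T cells, was at 0 to 0.345 FPKM over both groups and too low to be tested. The calls of Cd69 and Ikzf2 were lost in 14 and 19 of 34 alternatives. Cd69 was not called without AIMD replicate 1, 2, 3, 5 or 6 (limma adjusted p of 0.0503 to 0.0643), and Ikzf2 without AIMD replicate 2, 3, 5, 6 or 7 or vehicle replicate 3, 4, 5, 6 or 8 (0.0604 to 0.105).

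Of 25 genes through which epithelium and vessels hold or feed these lymphocytes, 20 were tested, 5 rose and 4 fell. These counts are near the shares over all tested genes, 19.4% higher and 16.7% lower. Butyrophilin-like genes, of which several act on epithelial cells to sustain intraepithelial gamma-delta T cells, were among those that rose. Btnl6 had FPKM of 22.1 to 63.2 in AIMD and 4.01 to 13.2 with vehicle, for a log2 fold change of 2.24 (SE 0.26, adjusted p = 9.77e-06 by limma). Btnl4 had 7.43 to 16.8 and 2.26 to 4.49, a log2 fold change of 1.77 (SE 0.18, adjusted p = 2.58e-06 by limma). The groups did not overlap for either gene, as for 8.55% of all tested genes, 5.26% with AIMD mice higher and 3.3% with AIMD mice lower, and 14.0% of the windows of Btnl4 and 6.58% of those of Btnl6 occur in other genes, each other among them.

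Btnl1, named after its value was seen, had a log2 fold change of 1.17 (adjusted p = 0.000519 by limma), and Btnl2 had one of -0.13 and was not called (adjusted p = 0.462 by limma). Tnfrsf14, the receptor HVEM, which epithelial cells use to receive signals from intraepithelial T cells, had FPKM of 1.66 to 4.14 and 0.186 to 0.987, which did not overlap, and a log2 fold change of 1.78 (adjusted p = 1.72e-06 by limma). Its reads came to 343 over the AIMD and 38 over the vehicle-treated mice. With 7 AIMD and 4 vehicle-treated mice at 0.5 or more, Tnfrsf14 passed the filter mainly through the AIMD mice. Tgfbr2, a receptor of TGF-beta, the cytokine that induces CD103, rose by 0.82 on the log2 scale (adjusted p = 0.000515 by limma), but was not called within cluster 1 (0.0668). Il15, the cytokine that keeps CD8 intraepithelial lymphocytes alive, had FPKM of 18.5 to 26.4 in AIMD and 24.4 to 39.6 in vehicle-treated mice and a log2 fold change of -0.53 (SE 0.12, adjusted p = 0.00311 by limma). Within clock-gene clusters 1 and 2 its adjusted p was 0.0554 and 0.0716 by limma.

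The other 3 genes of this list that fell were named after their values were seen. Madcam1, the vascular ligand for lymphocytes that enter the gut, had FPKM of 0.161 to 0.672 in AIMD and 0.573 to 1.40 in vehicle-treated mice and a log2 fold change of -0.70 (SE 0.15, adjusted p = 0.0023 by limma). Its reads came to 52 over the AIMD and 88 over the vehicle-treated mice. With 3 AIMD and 8 vehicle-treated mice at 0.5 or more, Madcam1 passed the filter mainly through the vehicle-treated mice. Il18, an epithelial cytokine, had 58.9 to 139.6 and 50.9 to 213.6, a log2 fold change of -0.87 (SE 0.27, adjusted p = 0.0204 by limma), which was not called without AIMD replicate 5 (0.0507) or within cluster 2 (0.265). H2-T3, which encodes the thymus leukemia antigen, a ligand of CD8 alpha chain pairs, had 33.3 to 46.1 and 34.9 to 61.5, a log2 fold change of -0.42 (SE 0.13, adjusted p = 0.0149 by limma). H2-T3 was called in neither cluster alone (0.126 and 0.142).

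**Figure D3:**
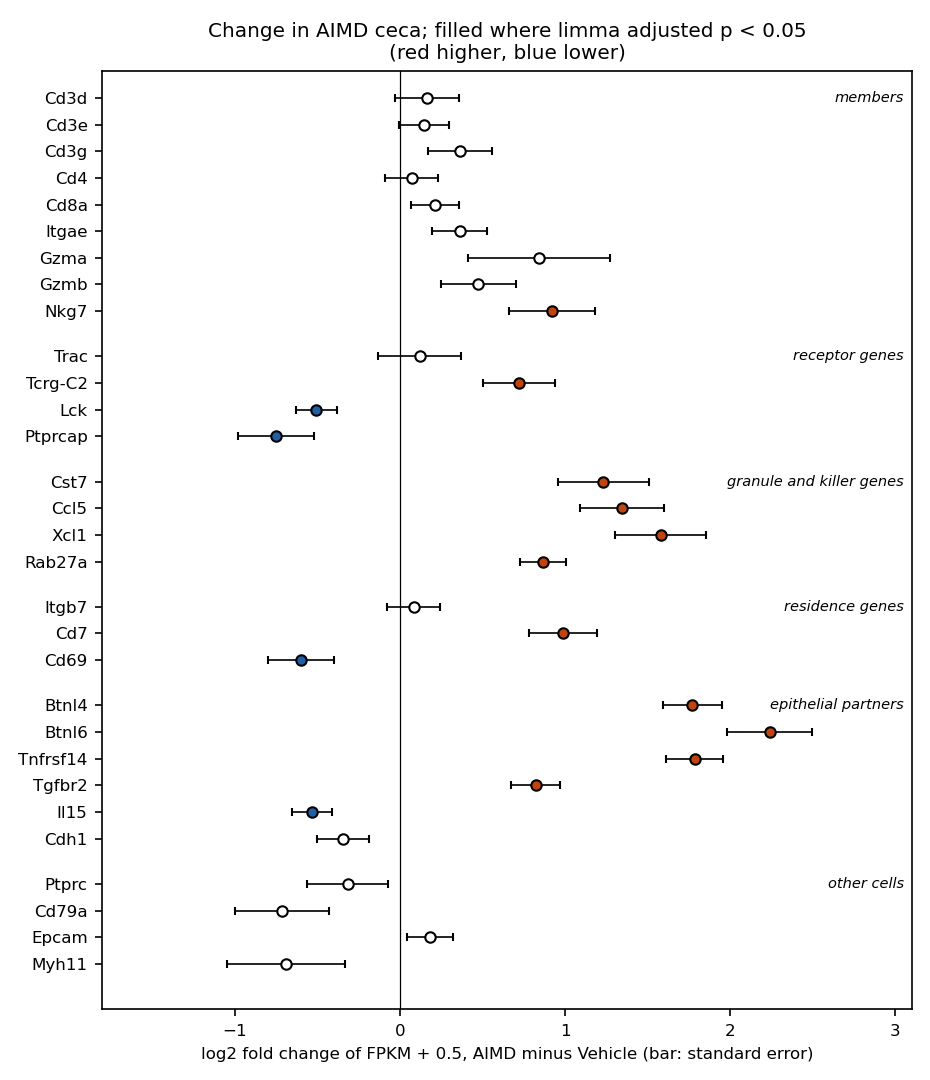
Log2 fold change of FPKM + 0.5, AIMD minus vehicle (horizontal axis, bars are standard errors), for the 9 tested members and genes of the lists, filled where the limma adjusted p was under 0.05. Among the members Nkg7 alone is filled, at 0.92, and Btnl6 has the largest value shown, 2.24.

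Markers of other cells in the same ceca moved as well, while 19.4% of all tested genes were called higher and 16.7% lower. Of 9 genes expressed in all leukocytes, 1 was called higher and 4 lower after AIMD, and of 13 B cell markers 0 were higher and 5 were lower, with a median log2 fold change of -0.72. The summed FPKM of the B cell markers was 21.3 to 138.0 in AIMD and 67.9 to 191.5 in vehicle-treated mice. Ptprc, the CD45 gene of all leukocytes, had a log2 fold change of -0.32 (adjusted p = 0.331 by limma), and Cd79a, a signaling chain of the B cell receptor, had one of -0.71 (adjusted p = 0.0586 by limma). Of 10 natural killer and innate lymphoid cell markers, 5 were tested, 3 were higher, Areg, Id2 and Il1rl1, and 0 were lower. Areg and Id2 are also expressed in other cells of the gut, and Id2 was not called without AIMD replicate 4 (limma adjusted p = 0.0510). The calls of Areg, Id2 and Il1rl1 were lost in 3, 5 and 1 of 34 alternatives. Among these were read depth as a covariate for Areg (limma adjusted p = 0.0911). Within clock-gene cluster 2, Id2 (0.372) and Il1rl1 (0.0765) were not called. Of 12 macrophage markers, 10 were tested, 4 were higher and 0 were lower. Ncr1, which defines natural killer cells, was at 0 to 0.433 FPKM over both groups and too low to be tested. The sum of 10 epithelial markers was 6212 to 9766 in AIMD and 5619 to 7831 in vehicle-treated mice, and that of 10 smooth muscle markers was 229.9 to 844 and 543 to 3185. The part of these shifts in the values of the members was not tested, beyond the covariate fits given above.

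**Figure D4:**
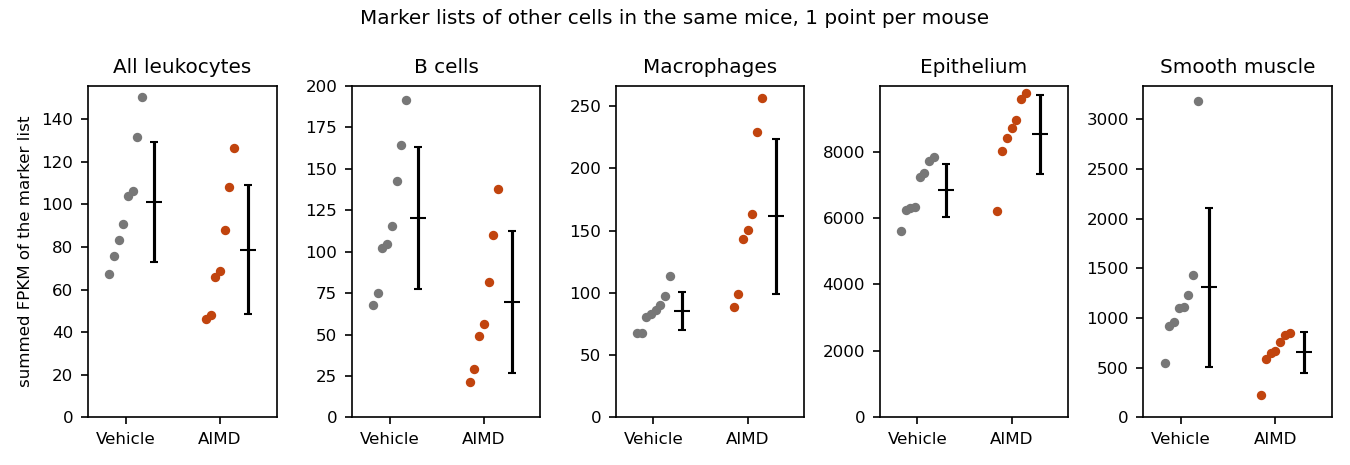
Summed FPKM of the marker lists (vertical axis, starting at 0) of all leukocytes, B cells, macrophages, epithelium and smooth muscle in vehicle-treated (grey, n = 8) and AIMD mice (red, n = 7), with 1 point per mouse and the mean and SD as a black bar. B cell sums reach 191.5 in vehicle-treated and 138.0 in AIMD mice, and 1 vehicle-treated mouse stands far above the others in smooth muscle markers, at 3185.

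Among the genes whose pattern was most like that of the CD3 genes were Gpr183 (r = 0.81), Gimap7 (0.80), RP23-272P19.10 (0.78), Gsap (0.76), Usp28 (0.76), Sp110 (0.75) and Aif1 (0.75). The measure is Pearson's r over 15 mice, between a gene's log2 values and the mean of the standardized values of Cd3d, Cd3e and Cd3g, all centered within the groups. It describes these libraries, which share depth and tissue makeup. The 3 CD3 genes were only loosely alike, at r of 0.48 (Cd3d and Cd3g), 0.29 (Cd3e and Cd3g) and 0.20 (Cd3d and Cd3e). Their mean had r of 0.74 with the mean of the plasma cell markers and 0.63 with that of all leukocytes. With epithelial markers r was -0.52. Which cells the pattern comes from was not tested. Gpr183 is a receptor that guides lymphocytes within lymphoid tissue, and Gimap7 is a GTPase gene of lymphocytes. The other genes of the 7 are not described here, and they are not all lymphocyte genes. All were taken for the highest r among the tested genes, so high values are in part set by that choice. None of these 7 genes was called in the limma fit or at an unadjusted p under 0.05, and their log2 fold changes ran from -0.60 (RP23-272P19.10) to 0.03 (Usp28).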

How the data were processed

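Ceca of 7 AIMD and 8 vehicle-treated mice were sequenced as 50-base single reads, from stranded libraries of poly-A RNA. The authors mapped reads to GRCm38 with STAR, used featureCounts to count them on GENCODE genes, and deposited FPKM by gene symbol, each mouse in its own column. How counts became FPKM, the strand setting and the GENCODE release are not given in the sources used here. The authors tested counts with DESeq2, in a model of time of sacrifice and treatment.

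Whole reads were recovered from the FPKM of all 24279 genes above 0, within 0.05 of a read (or the rounding of the table, for high counts), after 4 rows with repeated symbols were left out. The gene lengths behind the FPKM came out as whole bases for the 10 members; 2 equal the exon length in GENCODE M21 and 8 do not, so the positions given, from M21, may differ from the release counted. Levels and ratios between genes rest on these lengths, of which Gzma and Nkg7 share one and Gzmb and Cd8b1 another. Genes with low counts have low precision, and limits quoted for 0 reads (3 reads) cover counting error only.

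The deposited FPKM were further scaled by size factors (median of ratios), and 0.5 was added before log2. These factors were all 1.01, so the deposited values already stood on nearly the same scale by this measure. Genes at 0.5 FPKM or more in 7 or more mice were fitted with limma 3.58.1 (lmFit, eBayes with a trend, two-sided, Benjamini-Hochberg over all tested genes) in R 4.3.3. Cd8b1 was compared by an exact permutation test. The authors kept several mice to a cage, but which mice shared one is not given. Cage was therefore in no fit, and the p-values treat the mice as independent. Clock-gene clusters came from the first principal component of 12 clock genes centered within groups, which held 93.6% of their variance. Reads shared between genes were counted as 50-base windows that occur in transcripts of other genes. Promoter windows are from RefSeq. Python 3.11.15 ran the remaining steps (pandas 2.3.3, numpy 2.4.6, matplotlib 3.10.9, scipy 1.17.1), and the methods were tested on simulated data.

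The members and the gene lists were chosen with earlier results of these data known. Named are the members, up to 4 called genes of each list by smallest adjusted p, fixed defining markers, and the genes most like the CD3 genes, of which some are not reported here. The alternatives were other scalings, pseudocounts and filters, limma without a trend, limma voom on the recovered reads, a replicate block, a clock-gene axis, an exact rank-sum test, each cluster alone, tissue markers as covariates, and each mouse left out. Read depth and leukocyte markers as covariates and the interaction with the clusters were chosen after seeing the data.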

Additional observations from a re-analysis of the deposited data

Results flagged for a closer look

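On the log2(FPKM + 0.5) scale of the fits, no member had a mouse that stood apart from its group by Dixon's test, which compares the gap between an extreme mouse and its nearest neighbor with the range of the group. Among the other genes named, 7 values did, of 120 groups tested, and chance flags about 1 group in 20. The ratios below are on that log2 scale, and the values beside them are FPKM. Rab27a was high in vehicle replicate 5, with an FPKM of 7.54 against 4.96 for the next mouse (ratio 0.617). Itgax, a dendritic cell marker, was high in vehicle replicate 8, at 2.32 against 1.20 (ratio 0.551). Myh11, the smooth muscle myosin gene, was low in AIMD replicate 4, at 7.70 against 19.3 (ratio 0.646). Prf1 was high in AIMD replicate 6, at 0.111 against 0.0406 (ratio 0.612), and that mouse was also the highest for Gzma and Gzmb. Il15 was high in AIMD replicate 7, at 26.4 against 21.2 (ratio 0.621). Il18 and H2-T3 were low in vehicle replicate 8, Il18 at 50.9 against 161.9 (ratio 0.807) and H2-T3 at 34.9 against 48.1 (ratio 0.563). Taken on FPKM itself, 2 values of members and 12 of other genes stood apart, those of members being Gzmb in AIMD replicate 6, at 1.93 against 0.847 (ratio 0.674), and Cd8b1 in AIMD replicate 4, at 0.762 against 0.322 (ratio 0.577).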

How the results depend on the processing

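Reads per gene limit these results, since 9 to 21 reads of Nkg7 in an AIMD mouse and 0 to 11 in a vehicle-treated mouse leave wide counting error. Of 284 member fold changes under the alternatives, 271 kept their direction and side of the threshold, 4 lost a call, 8 gained one and 1 reversed. Fits in which a member did not pass the filter are not among them. Cd8a and Itgae were each tested in 8 of the 15 fits with 1 mouse left out. The number of members called higher, 1, became 0 with a filter at FPKM 1 (which leaves out Nkg7), within clock-gene cluster 1 and with smooth muscle markers as a covariate. It became 2 with the replicate block and with B cell, epithelial or leukocyte markers or read depth as a covariate, and ran from 1 to 2 with each mouse left out, being 2 without AIMD replicate 3. With epithelial markers or read depth the called genes were Cd3g and Itgae, not Nkg7. No member was called lower under any alternative. The log2 fold change of Nkg7 was 1.65 with a pseudocount of 0.1, 0.63 with a pseudocount of 1 and 1.48 with voom on the recovered reads, which called 2346 genes higher and 2093 lower. Over all genes, 2323 higher and 1997 lower calls became 1067 and 817 in cluster 1 and 1373 and 1163 in cluster 2, where fewer mice were fitted. Of 1020 counts of called genes in the lists, 831 stayed within 1.5 times and 189 did not.

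Replicate numbers were not used to pair the mice in the main fit. Same-numbered mice deviated together with correlations from -0.35 to 0.43, which cannot decide whether the numbers pair mice. The clock-gene clusters follow the order of the numbers in both groups. The replicate block called 2389 genes higher and 2263 lower, and added Gzmb to the called members.

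Fold changes that reversed, all of them uncalled in the main fit, were the following on the log2 scale, and their cause was not tested. In cluster 1, Cd3e was -0.035, Trac -0.37, Itgb7 -0.13, Usp28 -0.077 and Btnl2 0.0035. In cluster 2, Gpr183 was 0.17 and Gsap -0.021. With B cell markers, Ptprc was 0.24, Ms4a1 0.24, Trbc1 0.52, Gpr183 0.34, Gimap7 0.28, RP23-272P19.10 0.16, Sp110 0.14 and Aif1 0.35. With epithelial markers, Ptprc was 0.25, Ms4a1 0.16, Trbc1 0.37, Gpr183 0.22, Gimap7 0.22, RP23-272P19.10 0.067 and Aif1 0.32. With read depth, Ptprc was 0.15, Trbc1 0.50, Gpr183 0.31, Gimap7 0.31, RP23-272P19.10 0.090, Sp110 0.074 and Aif1 0.35. With leukocyte markers, Ptprc was 0.054, Trbc1 0.35, Gpr183 0.21, Gimap7 0.12, Sp110 0.022 and Aif1 0.21. With smooth muscle markers, Myh11 was 0.17, Gsap -0.063 and Usp28 -0.077. With scaling by the total outside the mitochondrial chromosome, Trbc1 was 0.017 and Aif1 0.010, and with the replicate block they were 0.067 and 0.0019. Usp28 was -0.0045 with quantile normalization. In the exact rank-sum test the difference of mean ranks, AIMD minus vehicle, was -0.804 for Gsap. With each mouse left out, Trbc1 ran from -0.17 to 0.095, Itgb7 from -0.021 to 0.14, Gpr183 from -0.21 to 0.034, Gsap from -0.061 to 0.086, Usp28 from -0.048 to 0.12 and Aif1 from -0.16 to 0.032.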
